A study of Homo sapiens with 4 samples.

Results

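Genes mostly known from neurons and kidney progenitors were described in HCT116 cells, a line from a human colon carcinoma, by their amplicon read counts in 4 groups. The groups were an hIDO1-overexpressing line with indole, the same line with DMF, wild type cells with indole and wild type cells with DMF. Indole was given at 1 mM, both treatments lasted 24 h, and the labels do not spell out DMF, which stands in place of indole in the comparison libraries. IDO1 converts tryptophan towards kynurenine. How the overexpressing line was made, and whether it is a clone or a pool, is not stated in the labels. The 10 genes were UCHL1, IRS4, NEFL, NEFM, INA, SALL1, WT1, EYA1, LIN28B and TUBB2B, of 20812 targets measured. They were picked by symbol because reads of them had been seen in the IDO1 line, so their difference between the lines is given as a description, with no test. Each group had 1 count column and was treated as 1 library, so no replicates could be compared. The design text states 2 replicates, and whether a column sums them is not known.

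Most of these genes are best known from the nervous system or from the embryonic kidney. Neurofilament proteins and alpha-internexin build the intermediate filaments of axons, and UCHL1 and TUBB2B are abundant in neurons. SALL1, WT1 and EYA1 act in the nephron progenitors of the developing kidney, where EYA proteins serve as transcriptional cofactors. LIN28B blocks the maturation of let-7 microRNAs in embryonic and some tumour cells, and IRS4 is a docking protein below the insulin and IGF receptors. None of the 10 genes is a usual marker of colon epithelium.

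Promoter sequences are shown for UCHL1, INA and TUBB2B, the members with a single entry in the RefSeq-derived table, to show the start regions of these members in the reference genome. No link between these letters and the reads was tested. Each runs 5′ to 3′ from 250 bases before to 50 bases after the start in build GRCh38.p14, and capitals mark the letters GGGCGG or its reverse complement, known as a GC box. UCHL1 lies at chr4:41256678-41256977 on the + strand, INA at chr10:103276888-103277187 on the + strand, and TUBB2B at chr6:3227604-3227903 on the - strand.
UCHL1: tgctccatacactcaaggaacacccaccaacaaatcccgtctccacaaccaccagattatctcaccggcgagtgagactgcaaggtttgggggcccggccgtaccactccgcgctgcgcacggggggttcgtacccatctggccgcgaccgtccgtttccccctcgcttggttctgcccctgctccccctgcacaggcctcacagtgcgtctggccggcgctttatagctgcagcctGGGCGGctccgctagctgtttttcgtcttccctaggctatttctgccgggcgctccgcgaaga
INA: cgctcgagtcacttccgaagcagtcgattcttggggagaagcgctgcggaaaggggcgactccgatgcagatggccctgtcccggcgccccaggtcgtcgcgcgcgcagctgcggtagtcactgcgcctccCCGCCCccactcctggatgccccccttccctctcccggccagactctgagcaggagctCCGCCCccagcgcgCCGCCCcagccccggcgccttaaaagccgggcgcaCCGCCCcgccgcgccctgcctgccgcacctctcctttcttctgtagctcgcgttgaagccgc
TUBB2B: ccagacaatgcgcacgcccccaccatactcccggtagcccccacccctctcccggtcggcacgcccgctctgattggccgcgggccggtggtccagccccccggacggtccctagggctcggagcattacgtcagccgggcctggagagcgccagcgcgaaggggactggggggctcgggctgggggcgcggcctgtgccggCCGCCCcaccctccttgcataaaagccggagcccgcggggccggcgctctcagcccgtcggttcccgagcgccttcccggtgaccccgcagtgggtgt

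The table held 11 promoters of 6 members (UCHL1, IRS4, INA, WT1, LIN28B and TUBB2B). The windows of IRS4 overlap and several belong to WT1, so the 11 are not independent. Of these 11, 9 had more CpG dinucleotides than the median of 14 over 35116 promoters of the same length. The 3 printed promoters held 25, 35 and 34 CpG for UCHL1, INA and TUBB2B. The 2 promoters under the median were start sites of WT1 with 4 CpG and of LIN28B with 8, while the other LIN28B start had 37. The letters GGGCGG were in 7 of the 11, against 45.0% of all promoters, on either strand. TATAAA was in 1 of the 11, that of UCHL1, against 11.5% of all. A GCGGGGGCG match was in 1, a start of IRS4, against 5.07% of all, and it can overlap a GGGCGG match. TCAGCACC and TCAGGTT were in 0 of the 11, against 1.67% and 3.37% of all promoters. A match or its lack describes the letters of these windows only.

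Library totals ranged from 18283862 to 22736172 reads, and values are given as reads and as CPM, counts scaled to library size with TMM factors. Reads are per amplicon and not per length, so the order of reads between genes is not an order of transcripts. The overexpressed gene IDO1 had 2440 and 3451 reads in the IDO1 line with indole and with DMF, against 2 and 0 in wild type with indole and with DMF. The wild type library with indole stood apart from the others: 395 and 252 genes were at least 2-fold apart in the comparisons that use it, against 38 and 7 in those that do not. Of 13 colon epithelium markers tested for a difference between the lines, 0 passed an adjusted p of 0.05, and KRT19 and KRT8, epithelial keratins, were the most abundant of them. EPCAM, an epithelial adhesion molecule, had 275 and 300 CPM in the IDO1 line with indole and with DMF, against 364 and 328 CPM in wild type with indole and with DMF. With DESeq2 the count was also 0, with library totals CLDN7 fell, and in a fit without the wild type library with indole KRT19 and CLDN7 fell. That fit has line as its only term and 1 residual degree of freedom, so the spread comes from the IDO1-line libraries with indole and with DMF, and the lone wild type library is assumed to vary like them. Defining genes of differentiated colon cells such as CDX1, GPA33, CEACAM5 and TFF3 had 0 reads in every library. RNA of the whole culture was measured, so fewer cells expressing a gene and less RNA of it per cell cannot be told apart.

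All 10 genes had reads in both libraries of the IDO1 line and close to none in wild type. Reads per gene ran from 10 to 333 in the IDO1 line with indole (median 39) and from 11 to 369 in the IDO1 line with DMF (median 50.5), against 0 to 2 in wild type with indole and 0 to 1 in wild type with DMF. Summed over the 10 genes, the level was 46.7 and 50.1 CPM in the IDO1 line with indole and with DMF, against 0.207 and 0.0940 CPM in wild type with indole and with DMF. In each wild type library 8 of the 10 genes had 0 reads. A count of 0 allows up to 3 reads, or 0.155 CPM in wild type with indole and 0.141 CPM in wild type with DMF. Folds against a library with 0 reads are lower bounds against that floor, taken per library, and other folds carry an exact 95% interval of counting error only. The floor leaves out the counting error of the IDO1-line reads, and the exact 95% lower limits of these folds were lower. They were 90.8 in indole and 92.8 in DMF for UCHL1, 2.81 in indole and 2.84 in DMF for WT1, and 2.34 in DMF for EYA1.

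**Figure D1:**
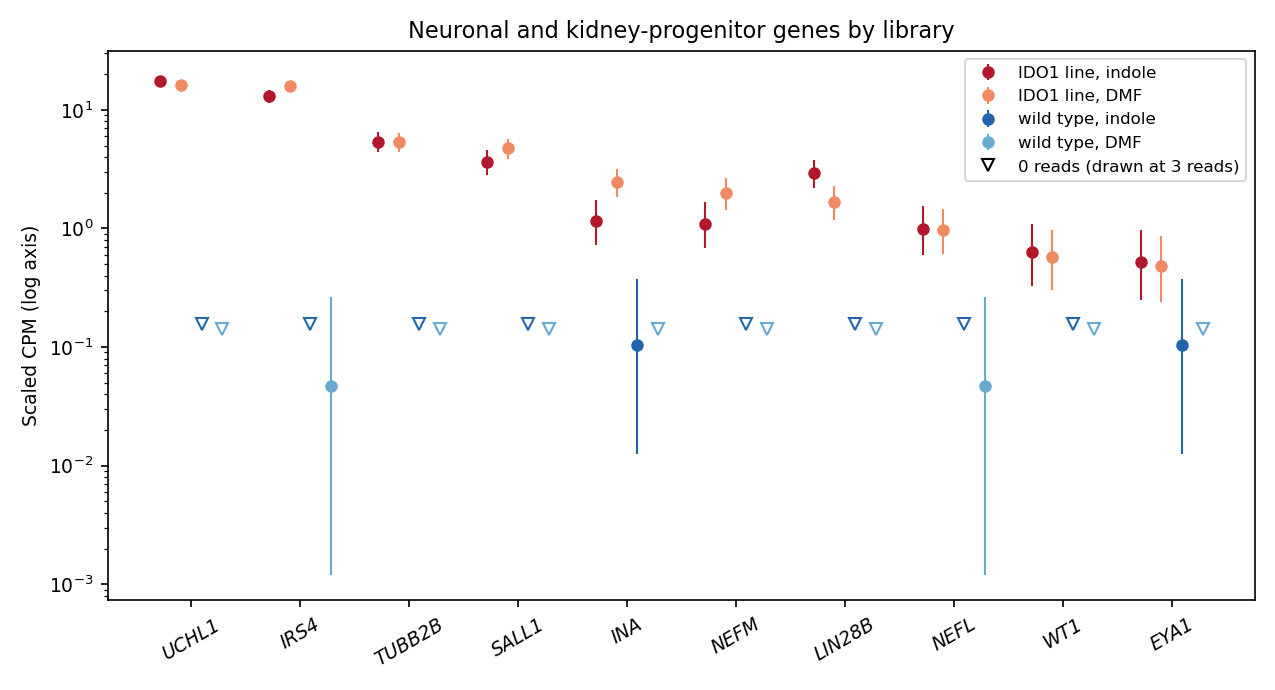
Scaled CPM on a log axis for each of the 10 genes in the 4 libraries, with exact 95% Poisson intervals of counting error. Open triangles mark 0 reads and are drawn at the level of 3 reads. Every gene sits higher in both IDO1-line libraries than in both wild type libraries, which repeats how the genes were chosen. IDO1-line levels run from 17.4 CPM for UCHL1 down to 0.482 CPM for EYA1.

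Of the structural genes of neurons, TUBB2B, a beta tubulin of the developing brain, was the most read. It had 103 and 121 reads in the IDO1 line with indole and with DMF, against 0 and 0 in wild type with indole and with DMF. That is at least 34.7-fold higher in indole and at least 37.6-fold higher in DMF. The near-identical paralog TUBB2A had 1609 and 1846 reads in the IDO1 line and 987 and 1930 in wild type with indole and with DMF, so TUBB2B read 0 in libraries in which TUBB2A was abundant. How reads shared by the paralogs were counted is not given in the sources used here.

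NEFL, the light neurofilament chain, had 19 and 22 reads in the IDO1 line with indole and with DMF, against 0 and 1 in wild type with indole and with DMF. It was at least 6.40-fold higher in indole and 20.5-fold higher in DMF (3.31 to 846). The interval for NEFL in DMF is wide because it rests on 1 wild type read. NEFM, the medium chain, had 21 and 45 reads in the IDO1 line with indole and with DMF and 0 in both wild type libraries, at least 7.08-fold and 14.0-fold higher. INA, alpha-internexin, had 22 and 56 reads in the IDO1 line with indole and with DMF, against 2 and 0 in wild type with indole and with DMF, which is 11.1-fold higher in indole (2.73 to 97.6) and at least 17.4-fold higher in DMF. The 3 filament genes had at most 3 reads in both wild type libraries and at least 10 in both IDO1-line libraries. That pattern held for 1.56% of targets with at least 10 reads anywhere, and for these genes it repeats their choice.

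UCHL1, which removes ubiquitin from small adducts and is one of the most abundant proteins of neurons, had the most reads of the 10 genes. It had 333 and 369 reads in the IDO1 line with indole and with DMF, against 0 in both wild type libraries, at least 112-fold higher in indole and at least 115-fold in DMF against the floor. Its level of 17.4 and 16.2 CPM was at or above that of 55.1% and 54.4% of the targets with reads in the same library. Even the member with the most reads was therefore near the middle of the detected targets.

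Of the kidney regulators, SALL1, a zinc finger factor of nephron progenitors, had 69 and 108 reads in the IDO1 line with indole and with DMF and 0 in both wild type libraries. It was at least 23.3-fold higher in indole and at least 33.6-fold in DMF. WT1, the Wilms tumour zinc finger factor, had 12 and 13 reads in the IDO1 line and 0 in both wild type libraries, at least 4.04-fold higher against the floor in each treatment. EYA1 had 10 and 11 reads in the IDO1 line with indole and with DMF, against 2 and 0 in wild type with indole and with DMF. Its fold was 5.06 in indole (1.08 to 47.5) and, against the floor, at least 3.42 in DMF. WT1 and EYA1 had the fewest reads of the 10 genes, at 0.482 to 0.627 CPM in the IDO1 line, where counting error alone is wide.

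IRS4 had 249 and 360 reads in the IDO1 line with indole and with DMF, against 0 and 1 in wild type with indole and with DMF. It was at least 83.9-fold higher in indole and 336-fold higher in DMF (59.8 to 13290), a fold that rests on 1 wild type read. LIN28B had 56 and 38 reads in the IDO1 line with indole and with DMF and 0 in both wild type libraries, at least 18.9-fold and 11.8-fold higher. Its paralog LIN28A had 15 and 38 reads in the IDO1 line with indole and with DMF and 38 and 31 in wild type with indole and with DMF. LIN28A thus had reads in all 4 libraries, and LIN28B in the IDO1 line alone.

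On the scale of log2(CPM + 1), with at least 10 CPM in 1 of the libraries compared, only UCHL1 and IRS4 could be counted, and both passed 2-fold upward, IDO1 line over wild type, in each treatment. Over all genes so counted, 0.282% passed upward and 0.165% downward in DMF, and 2.28% upward and 2.22% downward in indole. Scaled by library totals, the split in indole was 147 genes upward and 274 downward, against 200 and 195. With a minimum of 1 CPM, 7 of the 10 genes entered, of which 7 passed upward in DMF (1.71% of all genes) and 6 in indole (3.33% of all genes), INA being the exception. NEFL, WT1 and EYA1 stayed under 1 CPM in every library. These counts repeat the choice of the genes and are given as a description. The pattern of at most 3 reads in both wild type libraries and at least 10 in both IDO1-line libraries was found for 212 of 13598 targets with at least 10 reads anywhere (1.56%), among them all 10 genes. The reverse pattern was found for 9 targets (0.0662%).

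The second comparison asked whether these genes moved with indole. Within the IDO1 line, 3 genes had fewer reads and 1 had more with indole beyond counting error. INA was 2.14-fold lower with indole than with DMF (1.28 to 3.67), NEFM 1.80-fold lower (1.05 to 3.18) and IRS4 1.21-fold lower (1.03 to 1.43), while LIN28B was 1.76-fold higher (1.14 to 2.73). For the other 6 genes the counting interval of the ratio spanned 1. UCHL1 had a ratio of 1.08 (0.925 to 1.25), TUBB2B 1.01 (0.773 to 1.33), SALL1 0.762 (0.555 to 1.04) and NEFL 1.03 (0.527 to 1.99). WT1 had 1.10 (0.459 to 2.62) and EYA1 1.08 (0.413 to 2.81), intervals that allow more than a doubling. Of the filament genes, NEFM and INA lay below 1, and NEFL was read too little to be set apart from them.

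As a background, 5980 genes had between 21 and 702 reads summed over these 2 libraries, the range of the 10 genes. Of these, 11.5% were higher and 8.7% lower with a counting interval clear of 1, against 1 and 3 of the 10 genes. The 202 other genes with at most 3 reads in both wild type libraries and at least 10 in both IDO1-line libraries had a median ratio of 1.08 (quartiles 0.909 and 1.34), and the 10 genes had a median of 1.02, from 0.468 to 1.76. IDO1 itself had a ratio of 0.843 (0.800 to 0.888), and LIN28A, the paralog of LIN28B, was 2.12-fold lower (1.14 to 4.16). These intervals compare 2 libraries, not 2 conditions, and the difference between the ratios was not tested. On the log2(CPM + 1) scale, 0 of the 10 genes passed 2-fold between indole and DMF in the IDO1 line. Of all genes, 0.0469% passed upward and 0.0352% downward with a minimum of 10 CPM, and 0.0566% in each direction with 1 CPM.

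**Figure D2:**
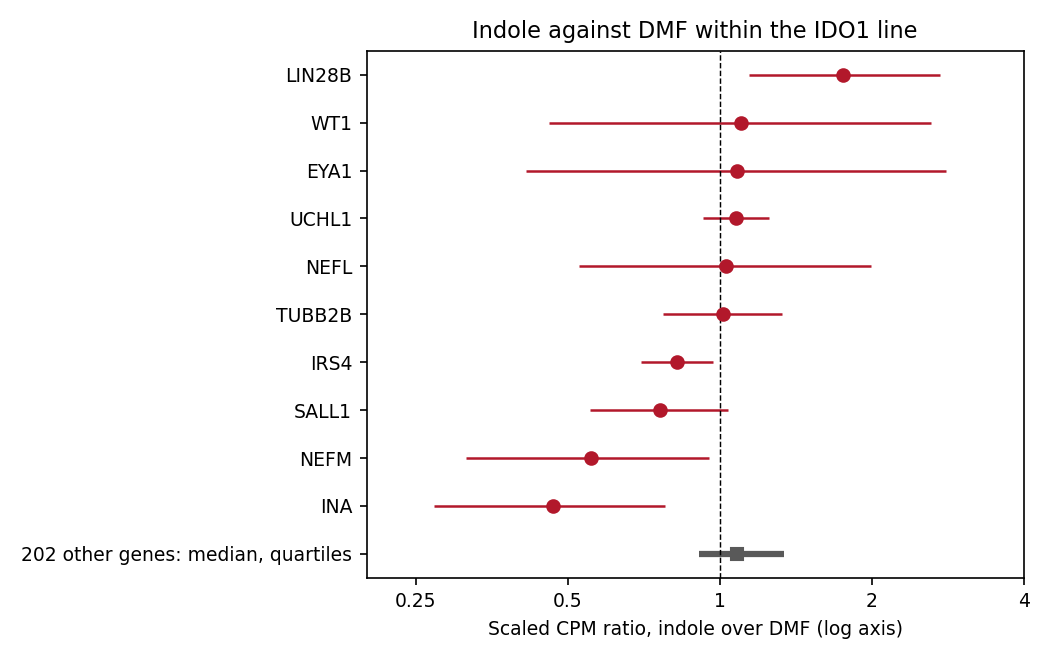
Ratio of scaled CPM, indole over DMF, within the IDO1 line on a log axis, with exact 95% intervals of counting error for the 10 genes. The grey bar gives the median and quartiles of the 202 other genes with hardly any wild type reads. INA (0.468), NEFM (0.556) and IRS4 (0.825) lie below 1 and LIN28B (1.76) above it, with intervals clear of 1.

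In wild type no ratio could be given, since each gene had 0 to 2 reads there. An additive fit of line and treatment over the 4 libraries, by edgeR's quasi-likelihood test with adjustment over 13122 genes, called 0 of the 10 genes for indole against DMF and 0 of all genes (0.0%). There were 448 genes in all, and 0 of the 10, at an unadjusted p under 0.05. DESeq2 called 0 genes, with 129 at an unadjusted p under 0.05. The fitted log2 difference, indole minus DMF, was -0.83 for NEFM (SE 0.770), -0.69 for INA (SE 0.744), -0.32 for IRS4 (SE 0.389) and 0.81 for LIN28B (SE 0.696), each with an edgeR adjusted p of 1.00. With DESeq2 the difference of INA was 0.15, of the opposite sign. In the edgeR fit, 5 of the 10 genes were below 0 and 5 above it, with a median of -0.05, beside 0.01 over all genes tested. The fit has 1 residual degree of freedom, and the libraries are not stated to come from separate cultures. Its p-values therefore reflect the spread among these 4 libraries alone, and that spread may be technical. With 0 to 2 wild type reads per gene, the test of the 10 genes rests mostly on the IDO1-line libraries. A lack of calls there does not show that indole left the 10 genes unchanged.

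The third comparison asked whether other genes of the same roles differed between the lines, by the same edgeR fit. Over all 13122 genes, 2.03% rose and 0.419% fell in the IDO1 line. Of 20 kidney progenitor genes tested, 5 rose and 0 fell, with a median log2 difference of 0.36, beside 0.01 over all genes. With no filter on low counts, 5 of 29 genes of that list rose, with a median of 0.64. SIX2, the transcription factor that keeps nephron progenitors undifferentiated, had 98 and 101 reads in the IDO1 line with indole and with DMF, against 11 and 16 in wild type with indole and with DMF, and rose (log2 fold change 2.83, SE 0.451, edgeR adjusted p 0.000125). COL2A1, the cartilage collagen chain, had 105 and 86 reads in the IDO1 line with indole and with DMF and 0 in both wild type libraries, at least 35.4-fold and 26.7-fold higher. The homeobox gene HOXD11, with 19 and 12 reads in the IDO1 line against 0 in wild type, also rose. COL2A1 and HOXD11 thus entered the test through their reads in the IDO1 line alone.

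HOXC11 and EMX2, further homeobox genes of that list, passed narrowly, with edgeR adjusted p of 0.0463 and 0.0293. In wild type with indole and with DMF, HOXC11 had 5 and 8 reads and EMX2 had 0 and 4. These reads were too few for the filter on low counts, so both genes also entered the test through the IDO1 line. Neither passed with median-of-ratios size factors, which left 3 genes of the list, nor in the fit of line alone without the wild type library with indole, which also left 3. With DESeq2 only SIX2 passed, and with a minimum of 10 CPM in 2 libraries 0 of 8 genes did, with a median of -0.02. PODXL, the podocyte sialomucin, and JAG1, a Notch ligand, were the most abundant genes of the list and did not pass. CDH6 and GDNF had 0 reads in every library. The list thus held genes that rose in the IDO1 line, genes read in both lines without a call, and genes read in neither.

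Of the EYA, SALL and DACH paralogs, 2 of 4 tested genes rose, and 2 of 6 with no filter on low counts. Both had 0 reads in wild type, so they entered the test through their reads in the IDO1 line alone. DACH1, a nuclear cofactor of the EYA network, had 160 and 134 reads in the IDO1 line with indole and with DMF, against 0 in both wild type libraries, at least 53.9-fold and 41.6-fold higher. EYA4 had 37 and 46 reads in the IDO1 line with indole and with DMF, against 0 in both wild type libraries, at least 12.5-fold and 14.3-fold higher. EYA4 therefore had more reads than EYA1, although amplicon yield differs between targets and reads do not rank transcripts. EYA3, read in every library, had 1800 and 1989 reads in the IDO1 line and 1674 and 1686 in wild type, with an edgeR adjusted p of 0.933. SALL4 had 28 and 34 reads in the IDO1 line with indole and with DMF and 54 and 53 in wild type with indole and with DMF, an edgeR adjusted p of 0.549. DESeq2 called EYA4 alone.

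Of other neuronal genes few were called. Of 15 tested, 1 rose and 0 fell, with a median log2 difference of -0.25, which was 0.34 over 28 genes with no filter on low counts. The gene that rose was CADM1, a synaptic adhesion molecule also found in epithelia, with 203 and 172 reads in the IDO1 line with indole and with DMF and 0 in both wild type libraries, at least 68.4-fold and 53.4-fold higher. Its rise was known from earlier results when the list was drawn up, and it entered the test through its IDO1-line reads alone. DESeq2 called 0 of the neuronal genes. DCX, ELAVL4 and CHGA, defining genes of neurons or neuroendocrine cells, had 0 reads in all 4 libraries, and STMN2 had 1 read in all. The summed level of the 33 neuronal genes measured was 437 and 423 CPM in the IDO1 line with indole and with DMF, against 514 and 501 CPM in wild type with indole and with DMF. Without STMN3 it was 238 and 225 CPM in the IDO1 line with indole and with DMF, against 232 and 239 CPM in wild type with indole and with DMF. STMN3, a microtubule-destabilising phosphoprotein and the most abundant of them before the glycolytic enzyme ENO2, had an edgeR adjusted p of 0.535 and fell in the fit of line alone, with wild type as 1 library, in which MAP1B rose. The name neuronal thus describes where NEFL, NEFM, INA, TUBB2B and UCHL1 are best known, and the other neuronal genes measured here were mostly unread or not called.

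Few close relatives of the 10 genes were called. Of 8 other intermediate filament genes tested, VIM, the mesenchymal filament vimentin, rose alone and 0 fell, a rise known from earlier results when the list was drawn up. VIM had 1120 and 1226 reads in the IDO1 line with indole and with DMF, against 55 and 88 in wild type with indole and with DMF (log2 fold change 4.01, SE 0.271, edgeR adjusted p 3.20e-11). NEFH, the heavy neurofilament chain, had 1 read in all, and LMNA, with LMNB2 a lamin of the nuclear lining, had 12442 and 14252 reads in the IDO1 line and 11583 and 13088 in wild type with indole and with DMF. Of 6 other beta tubulins 0 rose or fell, including the abundant TUBB and the neuronal isotype TUBB3 with an edgeR adjusted p of 0.981. Of 7 ubiquitin hydrolase and ubiquitin genes, UBB the most abundant, 0 rose or fell. UCHL3, the paralog of UCHL1, had 421 and 483 reads in the IDO1 line and 318 and 452 in wild type with indole and with DMF, with an edgeR adjusted p of 0.883. No relative of UCHL1 or TUBB2B on these lists was called with DESeq2 either.

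Of 13 genes of insulin and IGF signalling, 1 rose and 0 fell. It was IGFBP5, a binding protein of IGFs, with 68 and 89 reads in the IDO1 line with indole and with DMF, against 27 and 17 in wild type with indole and with DMF (log2 fold change 1.79, SE 0.444, edgeR adjusted p 0.0199), which DESeq2 did not call. The paralogs of IRS4 had reads in all 4 libraries, and neither passed: IRS1 had an edgeR adjusted p of 0.475 and IRS2 of 0.455. The most abundant genes of that list, IGFBP2 and the adaptor SHC1, did not pass. Of 14 genes around LIN28 and let-7, 1 rose and 0 fell. It was IGF2BP1, an mRNA-binding protein of embryonic cells and a known let-7 target, with 197 and 167 reads in the IDO1 line with indole and with DMF, against 6 and 4 in wild type with indole and with DMF. IGF2BP1 had a log2 fold change of 5.11 (SE 0.455, edgeR adjusted p 6.67e-09) and passed in DESeq2 as well. Its wild type reads were too few for the filter on low counts, so it entered the edgeR test through the IDO1 line. IGF2BP2, HMGA1 and IGF2BP3, further let-7 targets, did not pass, and HMGA1 and IGF2BP3 fell in the fit of line alone, with wild type as 1 library.

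REST is the repressor that keeps neuronal genes silent outside the nervous system. It had 406 and 498 reads in the IDO1 line with indole and with DMF, against 432 and 445 in wild type with indole and with DMF, with an edgeR adjusted p of 0.992. Of REST and 8 corepressor genes, HDAC1 and SIN3A the most abundant, 0 rose or fell in any of the fits run. Their median log2 difference was 0.12, beside 0.01 over all genes. A difference of REST mRNA between the lines was thus not detected, at 20.9 to 22.3 CPM in all 4 libraries.

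**Figure D3:**
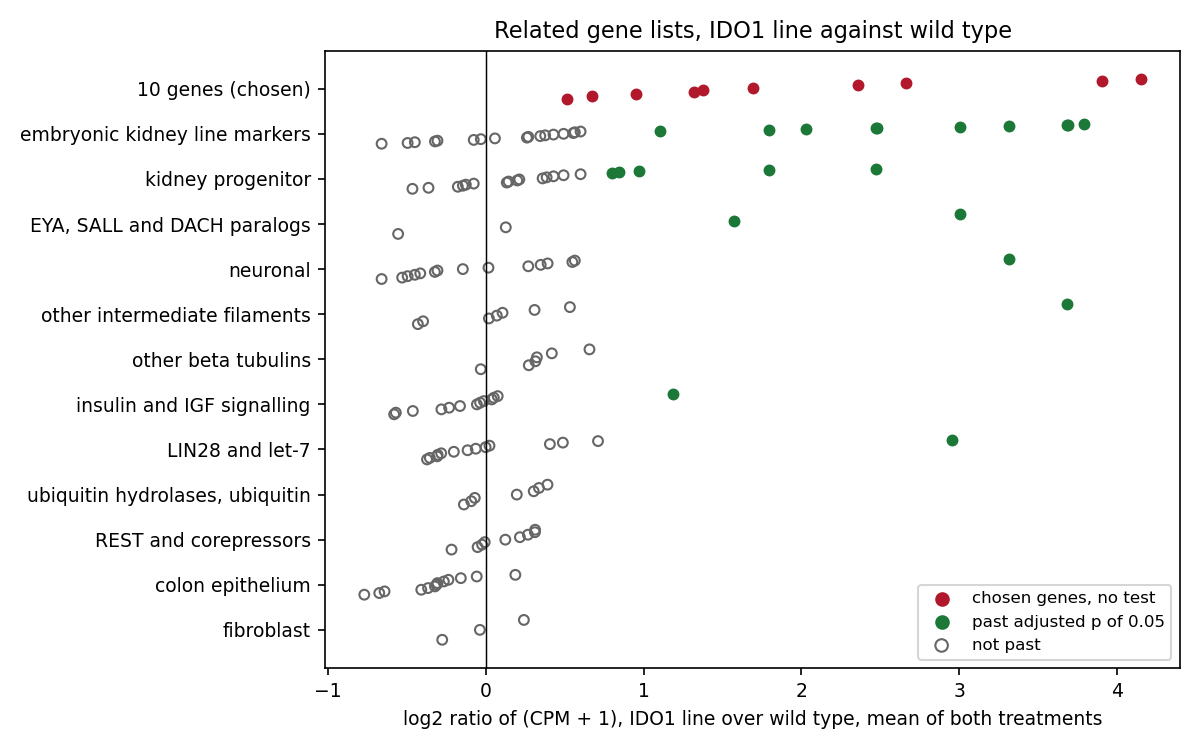
Each point is a gene, placed by its log2 ratio of (CPM + 1), IDO1 line over wild type, averaged over both treatments. Filled green points passed an adjusted p of 0.05 in the edgeR fit, open points did not, and the 10 chosen genes in red were not tested. Kidney progenitor genes and markers of embryonic kidney lines hold 5 and 10 points past the threshold, and neuronal genes 1. Those with 0 wild type reads, such as COL2A1 and CADM1, entered the test through their IDO1-line reads alone. Lists share genes, so SIX2, COL2A1, CADM1, VIM and DACH1 are each drawn in more than 1 list, and 6 of the 10 were known to rise from earlier results.

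Markers of embryonic kidney cell lines moved in part with the 10 genes. Of 27 tested genes of a list of 30, 10 rose and 0 fell, where 2.03% of all genes rose and 0.419% fell. With no filter on low counts it was 10 of 29. The 10 that rose were SIX2, HEY1, CADM1, HOXD13, CDH2, VIM, COL2A1, ADAMTS1, TBX2 and DACH1. Of these, HOXD13, CADM1, COL2A1, ADAMTS1 and DACH1 had 0 wild type reads, and CDH2 had 0 with indole and 1 with DMF. They entered the test through their IDO1-line reads alone and could only be called upward, which limits the comparison with the share over all genes. For 6 of the 10 the rise was known from earlier results when the list was drawn up, and without those 6 genes 4 of 21 rose. COL2A1 and DACH1, with 0 wild type reads, are among these 4. DESeq2 called 5 of the 29 with an adjusted p, and without those 6 genes 1 of 23. With a minimum of 10 CPM in 2 libraries, 3 of 13 rose, all among those 6, and without them 0 of 10. The lists share genes: SIX2 and COL2A1 are also kidney progenitor genes, CADM1 is also a neuronal gene, VIM an intermediate filament gene and DACH1 a DACH paralog. The summed level of the 30 genes was 1398 and 1410 CPM in the IDO1 line with indole and with DMF, against 999 and 1132 CPM in wild type with indole and with DMF, most of it CKB, the brain-type creatine kinase. Without CKB and those 6 genes, the sum over 23 genes was 411 and 400 CPM in the IDO1 line with indole and with DMF, against 472 and 416 CPM in wild type with indole and with DMF. HOXD13, ADAMTS1, CADM1, COL2A1 and DACH1 had 0 reads in both wild type libraries, SOX11 had 0 in all 4, and PAX2, a defining kidney gene, had 22 and 22 reads in the IDO1 line against 7 and 12 in wild type with indole and with DMF. Of 3 fibroblast markers tested, among them COL1A1 and ACTA2, 0 rose or fell, and COL1A2, DCN and THY1 had 0 reads in every library. The part of such cells in the reads of the 10 genes was not tested.

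By similarity of profile over the 4 libraries, the nearest genes with at least 10 CPM in a library were EN2, GJA1 and NRSN2. The measure was the Euclidean distance of centred log2(CPM + 1) values to the mean of the 10 genes, and it was 0.187, 0.427 and 0.472 for these. EN2, the homeobox factor engrailed of the midbrain, had 10.5 and 10.8 CPM in the IDO1 line with indole and with DMF, against 1.81 and 1.55 CPM in wild type with indole and with DMF. GJA1, the gap junction protein connexin 43, had 13.3 and 12.0 CPM in the IDO1 line with indole and with DMF, against 1.81 and 1.55 CPM in wild type with indole and with DMF. NRSN2, a neuronal vesicle membrane protein, had 10.3 and 13.9 CPM in the IDO1 line with indole and with DMF, against 1.34 and 1.88 CPM in wild type with indole and with DMF. The next were SPARC, AMOT, SAMD11, RND2, DLX2, CDKN2A and HIST1H4H, at distances of 0.723 to 1.05. The 10 genes themselves lay 0.429 to 2.19 from their mean, and the nearest genes, unlike them, had at least 24 reads in each wild type library.

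**Figure D4:**
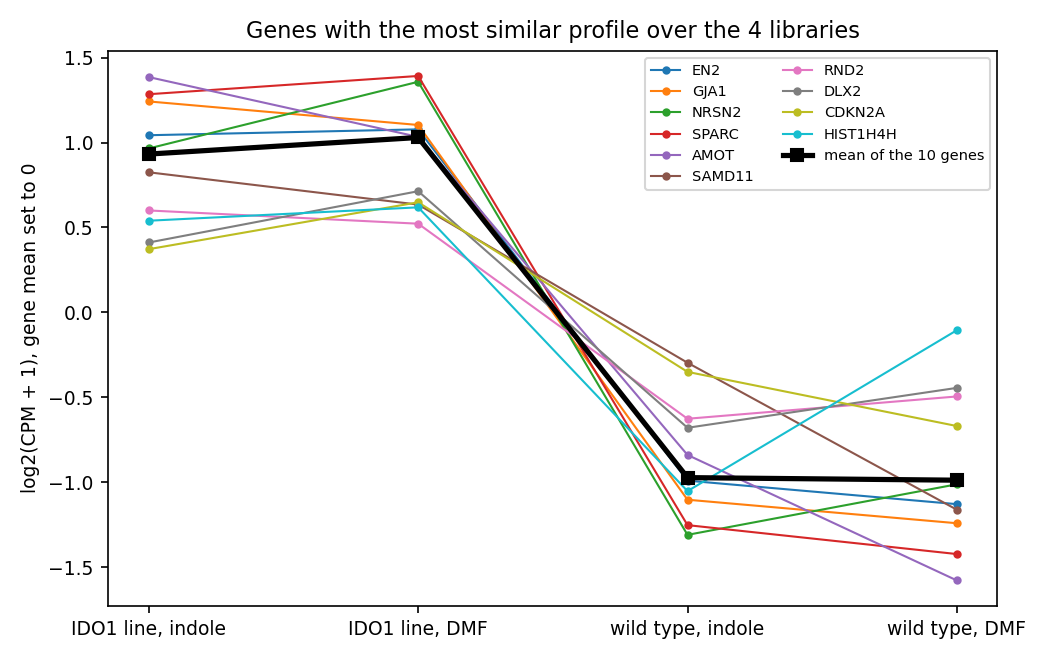
Centred log2(CPM + 1) in the 4 libraries for the mean of the 10 genes (black) and the 10 genes nearest to it. EN2, GJA1 and NRSN2 follow the black line closely, high in both IDO1-line libraries and low in both wild type libraries, and HIST1H4H at 1.05 is the farthest of those drawn.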

How the data were processed

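The libraries were made with an Ion AmpliSeq transcriptome kit, per the labels' protocols. The deposited files hold whole-number read counts per amplicon target, with 1 target per gene symbol. The submitters' processing notes name hg19, while the aligner and counter are not given in the sources used here. In the design text 2 replicates are stated, but each file holds 1 count column, so a group was treated as 1 library. The members and lists were chosen with earlier results of these data known. Counts were scaled by TMM (edgeR 4.0.16, R 4.3.3). Ratios carry exact Clopper-Pearson intervals at 95% (SciPy 1.17.1), which cover counting error only, since without molecular identifiers PCR reads are not separate molecules, and a count of 0 was given a floor of 3 reads. Calls of 2-fold used a pseudocount of 1 CPM and a minimum of 10 CPM.

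The additive fit used filterByExpr, edgeR's quasi-likelihood test on line and treatment, and Benjamini-Hochberg adjustment at 0.05, and was tested on simulated data. The standard error (SE) is the absolute log2 fold change over the square root of F, so it is approximate. Named were the members, up to 6 genes per list past the threshold and the 2 most abundant that were not, paralogs, IDO1 and the 10 nearest profiles; TBX2, HEY1, CDH2, STMN2, PAX2, EPCAM, CLDN7, REST, IRS1, IRS2, UCHL3, MAP1B, IGF2BP3, NEFH and genes at 0 reads were named after their values were seen. PCSK1N and ASCL2 of the lists were not analysed here, and some genes of the lists are not reported here. Alternatives were other scalings, pseudocounts of 0.25 and 5 CPM, other minimums and DESeq2 1.42.0.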

Additional observations from a re-analysis of the deposited data

Results flagged for a closer look

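A flag needed a ratio of indole over DMF in both lines. None could be given in wild type for the 10 genes, so they could not be flagged. For 7 genes of the related lists, the ratio of indole over DMF lay on opposite sides of 1 in the 2 lines, with both counting intervals clear of 1. The difference between the lines was not tested, as each ratio compares 2 libraries. VIM had a ratio of 1.09 in the IDO1 line and 0.687 in wild type. KRT19, a keratin, had 1.18 in the IDO1 line and 0.710 in wild type, HDAC1 1.09 and 0.779, and UBB 1.05 and 0.813. LMNA had 1.04 in the IDO1 line and 0.973 in wild type, SHC1 0.966 and 1.16, and IGFBP2 0.965 and 1.07. All 7 wild type ratios use the library with indole that stood apart from the others.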

How the results depend on the processing

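All 60 recomputed ratios of the 10 genes, by library totals or median-of-ratios size factors, kept their direction where the interval was clear of 1 and stayed within their counting interval or remained bounds. All 42 recomputed indole effects of the 10 genes stayed short of the adjusted threshold, the smallest adjusted p being 0.999. Their size was less stable: with DESeq2 the log2 difference of INA changed sign, from -0.69 to 0.15. That of NEFL went from -0.12 to -0.66 and that of EYA1 from 0.53 to 1.54. The count of the 10 genes past 2-fold upward, IDO1 line over wild type, was 7 in DMF and 6 in indole with a minimum of 1 CPM or none, against 2 and 2 with 10 CPM, because only UCHL1 and IRS4 reach 10 CPM. Over all genes, a pseudocount of 5 CPM gave 25 genes at least 2-fold apart between the lines in DMF, 240 between the lines in indole and 149 between indole and DMF in wild type. A minimum of 1 CPM or none gave 236 between the lines in DMF, 756 between the lines in indole and 14 between indole and DMF in the IDO1 line. In the additive fit, genes called for indole numbered 6 by library totals, 10 unfiltered and 5 where 10 CPM in 2 libraries was required, with none of the 10 genes among them. Genes rising in the IDO1 line numbered 26 under that same requirement, where fewer genes are tested, and 74 with DESeq2, against 267. Genes falling numbered 113 with no filter, 12 with DESeq2 and 179 without the wild type library with indole, against 55; that last fit was chosen after seeing the data, and it called 318 rising. The cause of these shifts was not tested unless stated. With library totals the split of 2-fold calls in indole was 147 higher and 274 lower in the IDO1 line, against 200 and 195, and between indole and DMF in wild type 248 higher and 75 lower, against 118 and 134; that scaling put the median of all genes at 0.14 (log2) in wild type, against -0.04. No paired analysis was possible because each group had 1 library and the labels carry no replicate numbers. Depth limits WT1, EYA1 and NEFL, at 10 to 22 reads.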
